A study of Mus musculus with 5 samples.

Results

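The neuropeptide precursors and granins described here are 10 genes of the mouse cortex, followed over a microarray screening of projection neurons in the primary somatosensory area (S1). They comprised 8 neuropeptide precursors (*Trh*, *Crh*, *Penk*, *Pdyn*, *Pnoc*, *Tac1*, *Adcyap1*, and *Cartpt*) and 2 granins (*Scg2* and *Vgf*), of 19938 genes that had a probe set with 1 gene symbol. The rule that picked them uses gene names and no signal, but the list was drawn up with earlier results of these data known. Each of the 10 had 1 probe set, and all 10 were among the 12632 genes that reached the median of the array in at least 1 of the 5 arrays, which is the filter on dim genes used throughout.

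Neuropeptides are made as inactive precursor proteins that enter the secretory pathway, are cut by prohormone convertases and trimmed by carboxypeptidase E, and are stored in dense core vesicles until calcium releases them. Granins are acidic proteins of the same vesicles, and some of them are themselves cut into peptides. In the cortex, neuropeptide genes are known both from pyramidal neurons and from GABAergic interneurons, where a given peptide often marks a subclass of cells.

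The screening compared neurons of S1 by where they project and in which layer they lie. Wild-type ICR mice had been electroporated *in utero* with pCAGGS-tdTomato, a plasmid that makes L2/3 neurons red. Association neurons carried Green RetroBeads back from an injection in the primary motor area (M1), and callosal neurons from one in the contralateral S1 (cS1), both given on postnatal day (PD) 21. Brains were taken 3 days later, at PD24, and about 1000 labeled cells per group were cut out by laser microdissection. Association neurons were collected from L2/3, L5, and L6b, the layer that derives from the subplate (SP), and callosal neurons from L2/3 and L5, so that L6b has no callosal counterpart. Cells entered a group by their beads and their layer alone, and the number of animals behind each group is not stated in the sources.

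Each group was measured on 1 GeneChip Mouse Gene 1.0 ST array, so no difference has a replicate check, no p-value is given, and a gene is counted as higher or lower by a rule of size, at least 2-fold. Levels are log2 signals minus the median of their array, which ranged from 5.71 to 5.80, and levels were compared between arrays but never between genes. Any pair of arrays correlated at a Pearson r of 0.918 to 0.938 across probe sets. The table holds no detection calls, so whether a signal near or below the array median lies above background is not known. Association and callosal arrays differed in sex-linked genes, with *Xist* at 1.47 to 2.55 in the 3 association arrays and at -0.88 and -1.48 in the callosal ones, so projection and the sex of the animals cannot be told apart. The layer labels were checked against markers. The linear signal summed over 11 L6b/SP markers past the filter was 4998 in association L6b against 711 to 797 elsewhere, and 9 of these 11 were highest in association L6b. *Kcnab1* was 1 of the 9 and is no check, since the study selected it from these arrays for its enrichment in L6b. The sum over 9 L2/3 markers was 6668 and 5671 in the L2/3 arrays and 785 to 1645 in the others. The sum over 9 L5 markers was 4949 and 4800 in the L5 arrays and 1796 and 1263 in the L2/3 arrays, with 4638 in association L6b. A linear sum weighs the brightest marker most, here *Pcp4*, at 5.99 and 6.14 in the L5 arrays and 6.16 in association L6b. In each projection, 3 of the 9 were at least 2-fold higher in L5 than in L2/3 and 1 was lower. The lower ones were *Etv1* in association neurons (1.65 against 2.75) and *Rbp4* in callosal neurons (1.12 against 2.20).

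The cAMP response element (CRE), the binding site of the transcription factor CREB, is the textbook promoter element of neuropeptide and granin genes, and the sequences that hold it are shown to place it in these members. RefSeq promoters of the GRCm38.p6 build, from 250 bases before to 50 bases after each gene start, were given for 6 of the 10 members. These 6 members had 8 promoters. A member counted if any of its promoters matched, while the shares of all promoters count each promoter singly. The full element TGACGTCA, read on both strands, was found in *Cartpt* and *Scg2*, and in 1.79% of 32851 promoters of the same length. Its shorter form TGACG, which the full element contains, was found on either strand in *Trh*, *Cartpt*, *Tac1*, *Adcyap1*, and *Scg2*, and in 20.8% of all promoters. No match was found in *Pdyn*. *Tac1* held another TGACG match, 197 bases before the gene start, which is not printed below. Stretches of 30 bases are given 5′ to 3′ along the strand of the gene, with the match in capitals, where CGTCA is TGACG read from the opposite strand.
Trh, chr6:92244729-92244758, minus strand, match 96 bases before the gene start: ccccggctctgcCGTCAgcgcccctgcatt
Cartpt, chr13:99900777-99900806, minus strand, match 112 bases before the gene start: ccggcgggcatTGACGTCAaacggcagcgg
Tac1, chr6:7555006-7555035, plus strand, match 43 bases before the gene start: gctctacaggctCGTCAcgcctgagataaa
Adcyap1, chr17:93198914-93198943, plus strand, match 91 bases before a gene start: ggactaggatgcTGACGtcttttactgata
Scg2, chr1:79440076-79440105, minus strand, match 68 bases before the gene start: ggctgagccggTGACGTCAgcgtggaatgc
A match describes the letters only, and the arrays did not measure binding. The 5 genes with a match ranged from *Tac1*, with the largest span of the 10 members over the arrays, to *Scg2*, with a span well under 2-fold.

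Most of the precursors differed by at least 2-fold between arrays, while the granins and the opioid-related precursors *Pdyn* and *Pnoc* did not. *Trh* and *Crh* stood out upward in association L6b, *Penk* in association L2/3, *Adcyap1* in callosal L2/3, and *Tac1* in callosal L5, while *Penk* and *Tac1* stood out downward in association L6b. In total, 5 of the 10 members were at least 2-fold higher or lower in a single array than in every other array, against 11.9% of all genes past the filter. That share depends on the filter, at 7.74% with none and 20.8% with one at the 75th percentile of the array.

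**Figure D1:**
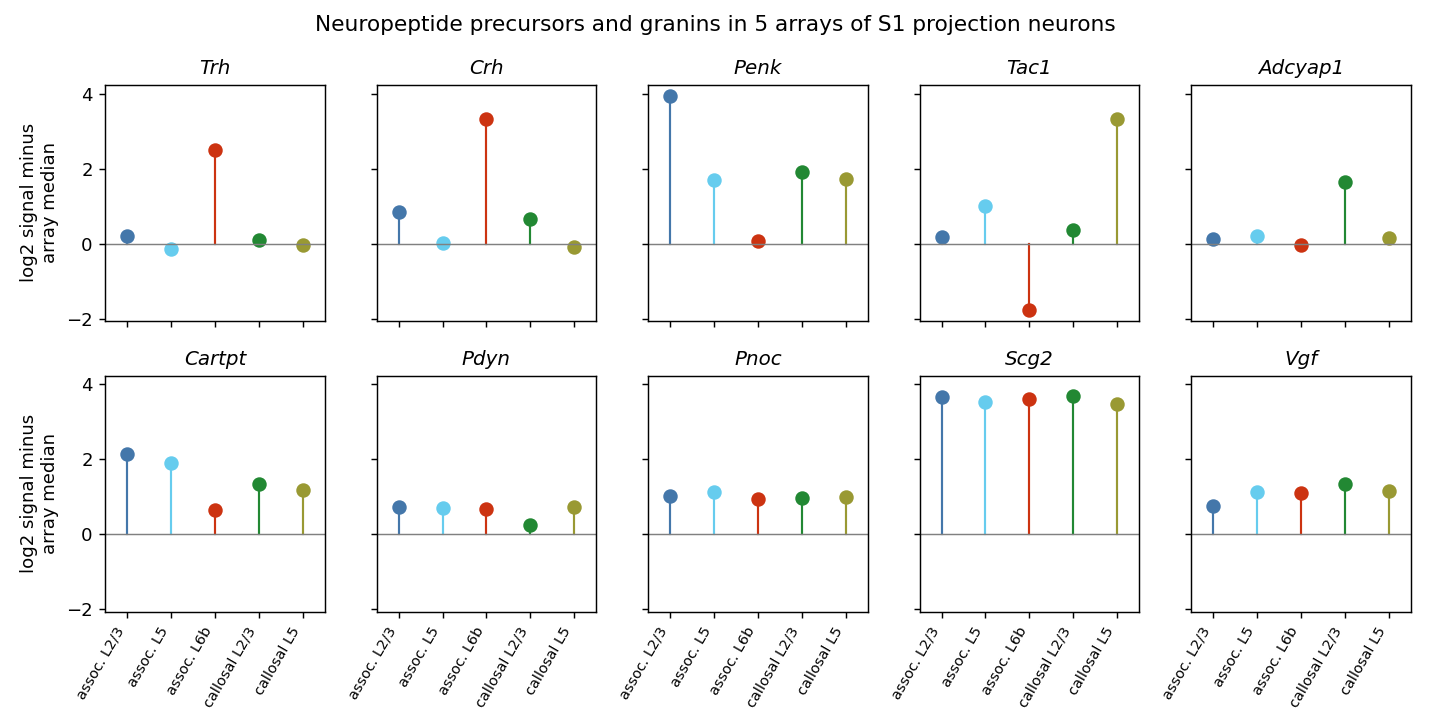
Log2 signal minus the array median (vertical axis) of each of the 10 members in the 5 arrays (horizontal axis), 1 point per array with no replicates, and with 0 at the array median. *Trh* (2.51) and *Crh* (3.32) are highest in association L6b, *Penk* (3.95) in association L2/3, *Tac1* (3.32) in callosal L5, and *Adcyap1* (1.66) in callosal L2/3, while the lower row is flatter.

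*Trh* encodes the precursor of thyrotropin-releasing hormone, a tripeptide cut in several copies from 1 protein. The level of *Trh* was 2.51 in association L6b, 0.20 in association L2/3, -0.14 in association L5, 0.09 in callosal L2/3, and -0.02 in callosal L5. Association L6b was thus alone, and the other 4 arrays lay within 0.34 of each other around the array median. *Trh* in association L6b exceeded the next array, association L2/3, by 2.31, or 4.96-fold, and the mean of the other 4 arrays by 2.48, or 5.57-fold.

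*Crh* encodes the precursor of corticotropin-releasing hormone, which starts the stress response in the hypothalamus and is made by interneurons in the cortex. *Crh* was at 3.32 in association L6b, 0.86 in association L2/3, 0.67 in callosal L2/3, 0.02 in association L5, and -0.09 in callosal L5. Association L6b was again alone on top, and below it both L2/3 arrays lay above both L5 arrays. The gap from association L6b to the next array was 2.46, or 5.50-fold, and the difference from the mean of the other 4 arrays was 2.96, or 7.75-fold. *Trh* and *Crh* were the 2 members at least 2-fold higher in association L6b than in each other array, a call made for 1.26% of all genes past the filter. In a bulk sample, more cells that express a gene and more RNA per cell cannot be told apart.

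Other signals moved with association L6b beside *Trh* and *Crh*. The summed linear signal of 9 oligodendrocyte markers was 3213 there, against 2743 in association L5, 1636 in callosal L5, and 691 and 725 in the L2/3 arrays, and 4 of the 9 were highest in association L6b. The sum of 13 GABAergic neuron markers past the filter was lowest there, at 1697 against 4301 to 6871 in the other arrays. That sum weighs the brightest markers most, here *Pvalb*, *Sst*, *Npy*, and *Lamp5*. The sum of 11 glutamatergic neuron markers was also lowest there, at 3242 against 5135 to 6810. The part of these cell type signals in the levels of *Trh* and *Crh* was not tested.

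*Penk* encodes proenkephalin, the precursor of the enkephalins, which act on delta and mu opioid receptors. Its levels were 3.95 in association L2/3, 1.92 in callosal L2/3, 1.72 in callosal L5, 1.69 in association L5, and 0.08 in association L6b. *Penk* had 3 tiers, with association L2/3 on top by 2.03 (4.08-fold), association L6b at the bottom by 1.61 (3.05-fold), and the other 3 arrays within a narrow band. Both L5 arrays had the same deposited signal of 7.46. *Penk* was the member at least 2-fold higher in association L2/3 than in each other array (2.34% of all genes), and it covered 3.87 on the log2 scale from top to bottom, or 14.6-fold.

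*Tac1* encodes the precursor of substance P and neurokinin A, tachykinins that excite neurons through the receptors of the *Tacr* genes. Its levels were 3.32 in callosal L5, 1.02 in association L5, 0.37 in callosal L2/3, 0.18 in association L2/3, and -1.77 in association L6b. Callosal L5 stood 2.30 (4.92-fold) above the next array, and association L6b stood 1.95 (3.86-fold) below the lowest of the others. *Tac1* was the member at least 2-fold higher in callosal L5 than in each other array (1.31% of all genes). *Tac1* and *Penk* were the 2 members at least 2-fold lower in association L6b than in each other array (2.82% of all genes). The span of *Tac1* from the lowest to the highest array was 5.09, or 34.1-fold, and 0.261% of the genes past the filter had a span as large.

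*Penk* and *Tac1* are also made by cortical interneurons, and GABAergic neuron markers varied over the same arrays. Of the 13 markers past the filter, 5 were lowest in association L6b. *Pvalb*, the parvalbumin gene of fast-spiking interneurons, was at -1.38 in association L6b, at 2.26 in callosal L2/3, and at 4.41 to 4.57 in the other 3 arrays. *Lamp5*, a gene of neurogliaform interneurons and of upper-layer pyramidal neurons, was at 2.41 in association L6b and at 3.37 to 5.59 in the others. *Sst*, the gene of somatostatin, was at 2.45 in association L6b and at 3.78 to 4.66 elsewhere. *Gad1*, *Gad2*, and *Slc32a1*, which GABAergic neurons share, differed less in association L6b than *Pvalb*, *Lamp5*, and *Sst* did. The glutamate decarboxylase genes were lowest there, with *Gad1* at 0.45 against 1.18 to 2.00 and *Gad2* at 0.25 against 0.45 to 2.18, but the vesicular transporter gene *Slc32a1* was at 1.93, between callosal L5 (1.83) and the other arrays (2.15 to 2.74). *Dlx1*, *Dlx2*, and *Lhx6*, also on the list, had differences of -0.05, 0.07, and -0.10 from the mean of the others. Their levels were only 0.08 to 1.11 over the arrays. The part of these markers in the levels of *Penk* and *Tac1* was not tested.

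*Adcyap1* encodes PACAP, a peptide that raises cAMP, in part through receptors shared with the vasoactive intestinal peptide. Its levels were 1.66 in callosal L2/3, 0.22 in association L5, 0.15 in callosal L5, 0.14 in association L2/3, and -0.04 in association L6b. Callosal L2/3 was the outlying array, by 1.44 or 2.71-fold, and the others were all close to the array median. *Adcyap1* was the member at least 2-fold higher in callosal L2/3 than in each other array, against 1.67% of all genes.

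*Cartpt* encodes the precursor of the cocaine- and amphetamine-regulated transcript peptides. Its levels were 2.14 in association L2/3, 1.90 in association L5, 1.34 in callosal L2/3, 1.18 in callosal L5, and 0.65 in association L6b. The arrays formed a graded series in which both L2/3 and L5 were higher in association than in callosal neurons, and L6b was lowest, by 0.53 from the next array. The level in association L6b lay 0.99 below the mean of the others, or 1.99-fold, and no array differed by 2-fold from each of the others.

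*Pdyn* encodes prodynorphin, the precursor of the kappa opioid ligands, and *Pnoc* encodes the precursor of nociceptin. *Pdyn* was at 0.67 to 0.74 in 4 arrays and at 0.26 in callosal L2/3, a span of 0.48. *Pnoc* was at 0.94 to 1.12 in all 5 arrays, a span of 0.18. Neither gene came close to a 2-fold difference between any of the arrays, so of the opioid-related precursors only *Penk* varied by that much here. Association L5, association L6b, and callosal L5 shared a deposited signal of 6.47 for *Pdyn*, and association L2/3, association L6b, and callosal L5 shared 6.74 for *Pnoc*.

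The granins also stayed under a 2-fold difference between any of the arrays. *Scg2* encodes secretogranin II, the precursor of secretoneurin, and was at 3.68 in callosal L2/3, 3.66 in association L2/3, 3.61 in association L6b, and 3.53 and 3.47 in L5 of association and callosal neurons. *Vgf* encodes a secreted protein that nerve growth factor induces and that is cut into several peptides, and was at 1.34 in callosal L2/3, 1.16 in callosal L5, 1.13 in association L5, 1.10 in L6b, and 0.75 in association L2/3. *Scg2* varied by 0.21 and *Vgf* by 0.59, with association L2/3 lowest for *Vgf*. In association L6b the difference from the mean of the other arrays was 0.03 for *Scg2* and 0.01 for *Vgf*. The arrays association L5, association L6b, and callosal L5 shared a deposited signal of 6.90 for *Vgf*. Such ties were common in the table, where 60.6% of all probe sets had the same value in at least 2 arrays and 36.5% in at least 3. Of the probe sets tied in exactly 2 arrays, 94.1% had the median of the 5 arrays as the shared value. The sources do not say how the ties arose. Their effect on the spans, on the genes described as level, and on the shares of all genes was not tested.

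Set against all genes, the members ranged from very large spans to spans near or below the median. Of the 10 members, 6 had a span of at least 2-fold, compared with 29.5% of all genes past the filter, and 4 had a smaller one. The median span of all genes was 0.53. Spans at least as large as that of *Penk* were found in 0.990% of genes, of *Crh* in 1.80%, of *Trh* in 4.60%, of *Adcyap1* in 13.4%, and of *Cartpt* in 17.1%. Spans as large as those of *Vgf* (46.9%), *Pdyn* (54.0%), *Scg2* (79.1%), and *Pnoc* (82.7%) were common. No member was at least 2-fold higher or lower in association L5 than in each other array, a call made for 2.14% of all genes.

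**Figure D2:**
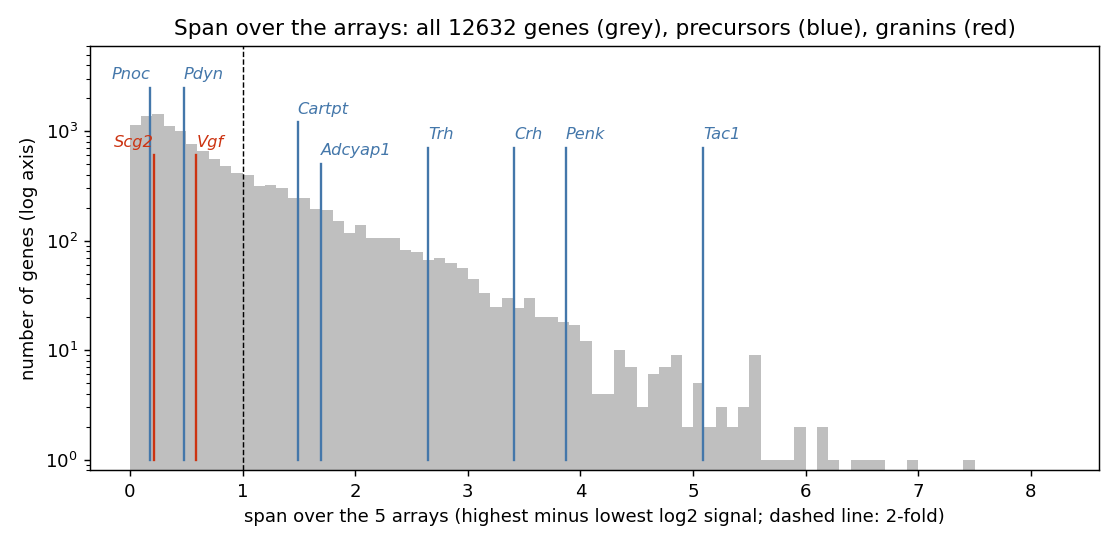
Histogram of the span over the 5 arrays (horizontal axis, highest minus lowest log2 signal) of all 12632 genes past the filter (grey bars, number of genes on a log vertical axis), with the 8 neuropeptide precursors (blue lines) and the 2 granins (red lines). Both granins, *Pnoc* (0.18), and *Pdyn* (0.48) lie left of the dashed 2-fold line, and *Tac1* (5.09) lies far to the right.

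In order to compare projections within a layer, association and callosal arrays were set against each other pair by pair. In L2/3, *Penk* was higher in association neurons by 2.03 and *Adcyap1* was higher in callosal neurons, with an association minus callosal difference of -1.52. These 2 of 10 members were at least 2-fold apart, as were 8.55% of all genes. In L5, *Tac1* alone was at least 2-fold apart, with a difference of -2.30, as were 8.46% of all genes. *Cartpt* was higher in association neurons of both layers, by 0.80 in L2/3 and by 0.72 in L5, each under 2-fold. *Penk* and *Adcyap1* differed between projections by 2.03 and -1.52 in L2/3 but by -0.03 and 0.07 in L5, and *Tac1* by -0.19 in L2/3 but by -2.30 in L5. Whether the difference between projections depends on the layer was not tested, since each of these values rests on a pair of single arrays.

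Layers were compared within each projection in the same way. In callosal neurons, *Tac1* was higher in L5 than in L2/3 by 2.95, and *Adcyap1* had an L5 minus L2/3 difference of -1.51, so that 2 members were at least 2-fold apart (8.6% of all genes). In association neurons, *Penk* had an L5 minus L2/3 difference of -2.26 and was the 1 member at least 2-fold apart (10.8% of all genes), while *Tac1* was higher in L5 by 0.84. *Crh* was lower in L5 than in L2/3 in both projections, with differences of -0.84 in association and -0.76 in callosal neurons, both under 2-fold.

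The comparison of L6b with the other association layers involved more of the members. *Trh* was higher in L6b by 2.65 than in L5 and by 2.31 than in L2/3, and *Crh* by 3.30 and 2.46. *Cartpt* was lower in L6b, with differences of -1.25 from L5 and -1.49 from L2/3. The corresponding differences were -1.61 and -3.87 for *Penk* and -2.79 and -1.95 for *Tac1*. These 5 of 10 members were at least 2-fold apart from association L5, as were 10.7% of all genes, and the same 5 were at least 2-fold apart from association L2/3, as were 13.4% of all genes. The L6b array is part of both comparisons, so they do not count as independent.

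**Figure D3:**
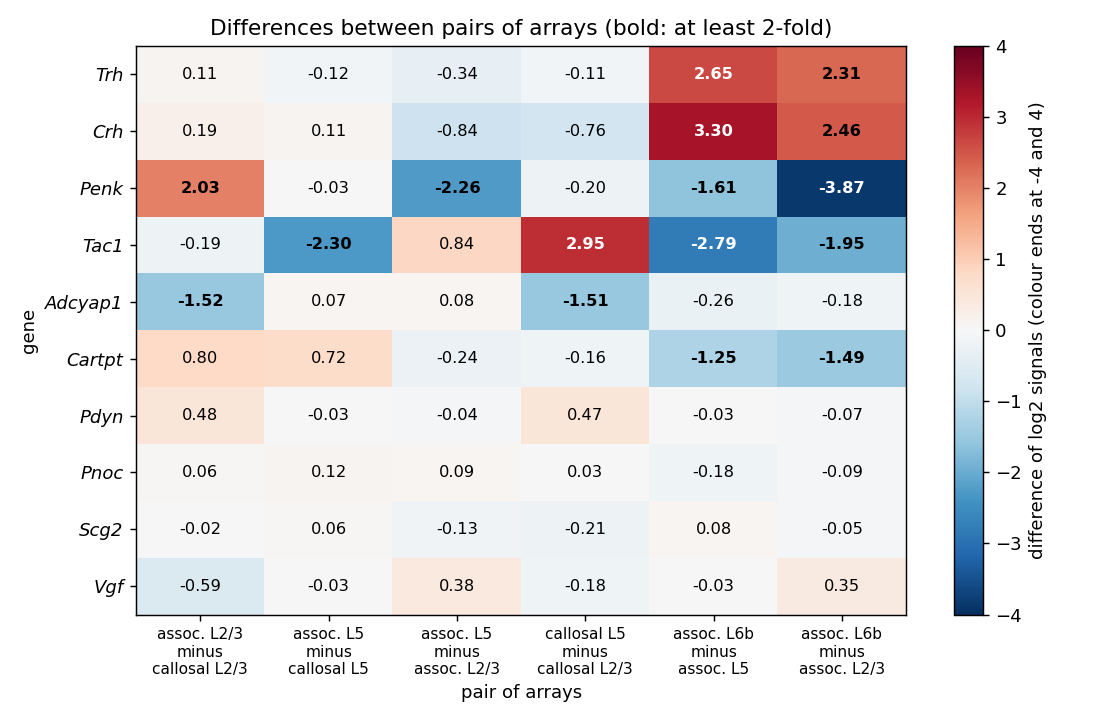
Differences of log2 signals minus the array median between 6 pairs of arrays (columns) for the 10 members (rows), coloured from blue (lower in the first array of the pair) to red (higher), with differences of at least 2-fold in bold. The bold entries lie in *Trh*, *Crh*, *Penk*, *Tac1*, *Adcyap1*, and *Cartpt*, and most of them are in the 2 columns with association L6b.

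The genes most like a member in profile were found among 11644 genes by the root mean square (RMS) distance of their levels over the 5 arrays, each gene centered on its own mean. Closest to *Trh* was *Ica1l*, at an RMS distance of 0.095 on the log2 scale, followed by *Tmed9* at 0.153 and *Dsel* at 0.156. For *Crh* these were *Trrap* at 0.220, *Syt10* at 0.319, and *Haus2* at 0.321. *Syt10*, which encodes a synaptotagmin of secretory vesicles, also belonged to the list of dense core vesicle genes. *Penk* was followed most closely by *Fstl5* at 0.217, *Ccdc90b* at 0.231, and *Akap5* at 0.242. The profile of *Tac1* had no near neighbor, since its closest genes, *Hnmt*, *Fkbp1b*, and *Ttll1*, were at 0.570, 0.607, and 0.612. *Adcyap1* and *Cartpt* had close ones, *Psme2* at 0.053, *Bub3* at 0.068, and *Dguok* at 0.083 for *Adcyap1*, and *Arhgap21* at 0.078, *Map3k5* at 0.084, and *Dcp2* at 0.120 for *Cartpt*. With 5 single arrays, close profiles are a description of these arrays only.

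Genes of the wider peptide system were examined as lists, each described by its difference in association L6b from the mean of the other 4 arrays. The median of that difference over all 12632 genes was -0.06. List medians near 0 have no settled direction, since those of the other neuropeptide precursors, processing enzymes, receptors, degrading enzymes, and activity-induced genes changed sign under another scaling or filter. Of 54 other neuropeptide precursors, 51 had a named probe set and 38 passed the filter, with a median of 0.02. None of the 38 was at least 2-fold higher in association L6b than in each other array, and 1, *Sst*, was at least 2-fold lower, with a difference of -1.78 from the mean. *Npy*, the neuropeptide Y gene, was lowest in callosal L5 (1.65), next in association L6b (2.40), and at 4.01 to 4.35 in the other arrays. *Vip* was at -0.13 in association L5, 0.73 in association L6b, and 1.74 to 2.14 in the others. *Grp*, the gastrin-releasing peptide gene, was above the array median in association L5 alone, at 1.65. In all, 7 of these 38 genes had a span of at least 2-fold, against 6 of the 8 precursors described above.

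Among the other granins and the enzymes that cut precursors, *Chgb* differed most in association L6b. All 5 other granins passed the filter, with a median of -0.30 and with a span of at least 2-fold in 4 of them, and 1 was at least 2-fold lower in association L6b than in each other array. That was *Chgb*, chromogranin B, at 1.72 in association L6b and at 3.24 to 3.67 in the others. *Chga*, chromogranin A, had a difference of -0.46 and *Scg3* one of 0.48, both under 2-fold. Of 14 precursor processing enzymes, 13 had a named probe set and 11 passed the filter, 4 of them with a span of at least 2-fold, with a median of -0.07 and with 0 genes at least 2-fold higher or lower in association L6b than in each other array. *Pcsk5*, a prohormone convertase, was at 0.89 in association L6b and at -0.19 to -0.03 elsewhere. *Pcsk1*, the convertase of neuroendocrine precursors, was at 2.55 in association L6b, 1.99 to 2.05 in the L2/3 arrays and association L5, and 1.04 in callosal L5. *Pam*, which amidates the ends of peptides such as thyrotropin-releasing hormone, had a difference of -0.64, and *Cpe*, the carboxypeptidase E gene, varied only from 6.30 to 6.49.

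Dense core vesicle genes held the largest differences among the peptide system lists. All 18 had a named probe set and 16 passed the filter, with a median of -0.16, 1 gene at least 2-fold higher in association L6b than in each other array and 1 at least 2-fold lower. Of the 16, 7 had a span of at least 2-fold. The higher gene was *Syt10*, at 3.57 in association L6b, 1.68 in association L2/3, 1.11 in callosal L2/3, 0.45 in callosal L5, and -0.12 in association L5. The lower gene was *Syt4*, another synaptotagmin, at 1.05 in association L6b and at 3.20 to 4.07 in the others. *Cadps2*, which primes dense core vesicles for release, had a difference of -0.93 and *Unc13a*, a priming factor of synaptic vesicles, one of -0.92.

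Receptors of the members' peptides and peptide-degrading enzymes past the filter had no 2-fold call in association L6b. Of 16 genes, the receptors and the binding protein gene *Crhbp*, 11 passed the filter, with a median of -0.04 and 0 genes at least 2-fold apart in association L6b. A span of at least 2-fold was found in 2 of the 11. *Oprl1*, the nociceptin receptor, was at 2.27 in association L5 and at 0.09 to 0.29 in the others, while its ligand gene *Pnoc* was level. *Vipr1*, a receptor that PACAP shares with the vasoactive intestinal peptide, was at 2.09 in callosal L5 and at 0.82 to 1.17 elsewhere. *Tacr1*, the receptor of substance P, had a difference of 0.42 and *Oprm1*, the mu opioid receptor, one of 0.22. Receptors of the members highest in association L6b were taken out of rule order, by their ligands. *Trhr* was below the array median in every array, at -1.79 to -1.49, and *Crhr1* was at 1.13 to 1.42. All 12 degrading enzymes had a named probe set and 6 passed the filter, with a median of 0.01. Of these 6, 0 genes were at least 2-fold apart in association L6b and 2 had a span of at least 2-fold. *Trhde*, the enzyme that degrades thyrotropin-releasing hormone, was highest in association L6b, at 1.77 against 0.41 to 1.47, a difference of 0.77 from the mean. *Thop1*, a peptidase, stood at 2.24 in callosal L2/3 and at 0.30 to 0.58 in the others, and *Pgpep1* (0.22) and *Nln* (-0.13) differed little in association L6b.

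Neuronal activity is known to induce several of these precursors, so activity-induced genes were listed beside them. Of 17, 16 passed the filter, with a median of -0.03 and 0 genes at least 2-fold higher or lower in association L6b than in each other array. *Egr2* was at 2.38 in association L2/3, the array in which *Penk* was highest, and at 0.13 to 1.05 in the others. *Jun* was at -0.04 in callosal L2/3 and at 1.04 to 1.59 in the others, and *Npas4* (0.56) and *Fosl2* (-0.29) differed from the mean of the others in association L6b by less than 2-fold. The part of activity in the levels of the members was not tested. No gene of these peptide system lists was at least 2-fold apart between projections in the same direction in both layers.

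The cell type lists give the setting of these values in association L6b. L6b/SP markers had a median difference of 1.34, with 6 of 11 genes at least 2-fold higher than in each other array and *Cplx3* at 5.22. *Kcnab1*, which the study selected from these arrays, was 1 of the 6. Oligodendrocyte markers had a median of 1.16, with 2 of 9 higher and *Mog* at 3.31. GABAergic neuron markers had a median of -0.71, with 2 of 13 at least 2-fold lower, *Pvalb* and *Sst*. Glutamatergic neuron markers had one of -0.67, with 4 of 11 lower, *Camk2a* (-2.71) and *Nrgn* (-1.88) among them, and L2/3 markers one of -0.83, with 2 of 9 lower. Medians were -0.16 for L5 markers, -0.16 for astrocyte, -0.02 for microglia, and -0.24 for endothelial and mural markers, with 1 astrocyte gene at least 2-fold lower and 0 genes of the other 3 lists at least 2-fold higher or lower.

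**Figure D4:**
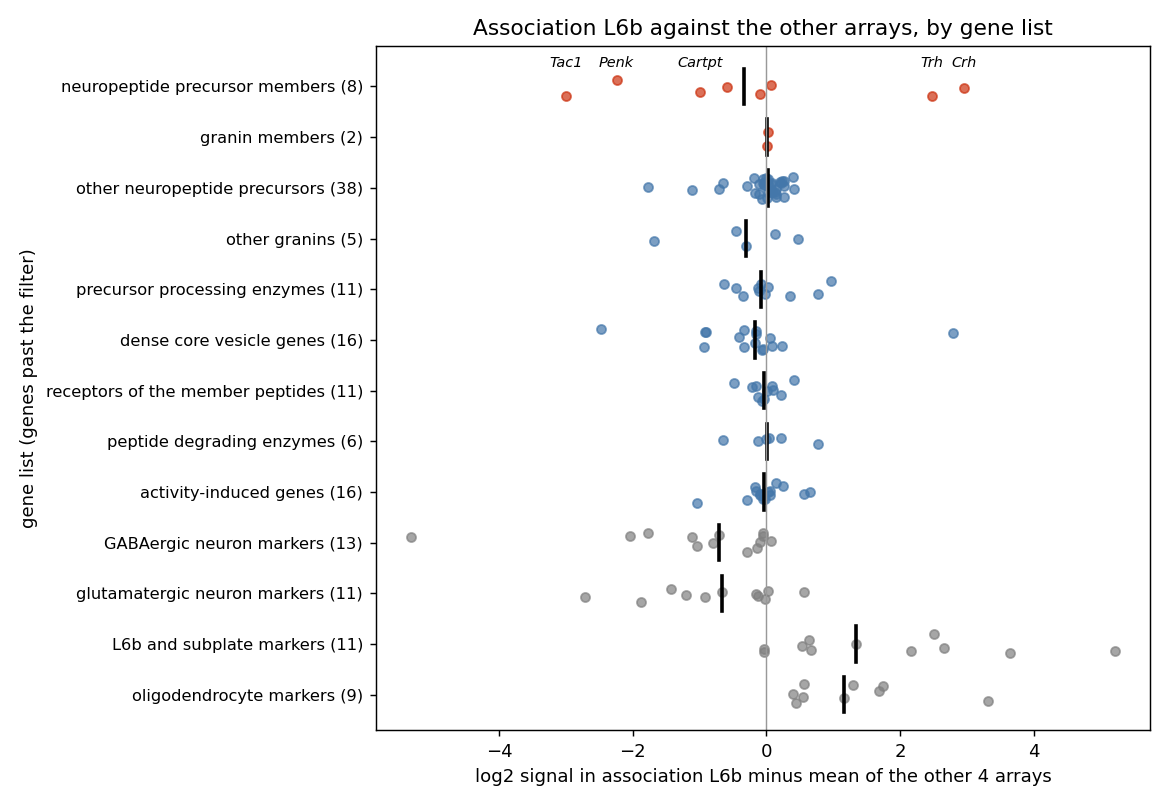
Difference of the log2 signal in association L6b from the mean of the other 4 arrays (horizontal axis) for the genes past the filter of each list (vertical axis, number of genes in brackets), with 1 point per gene and black bars at the list medians. The 8 precursors (red) reach from -2.99 for *Tac1* to 2.96 for *Crh*, while the medians of the other peptide system lists (blue) lie between -0.30 and 0.02, and cell type lists are grey.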

How the data were processed

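The authors deposited 1 table of log2 signals for 35556 probe sets on 5 arrays. The submitters' processing notes name Affymetrix Expression Console. Its version and the probe summarisation are not stated in the sources. The study's methods name a log transformation, a global normalization, and a centering. The deposited values are not centered per gene, and how far they hold the global normalization is not stated. Annotation of the platform gave 1 symbol for 21789 probe sets, several for 1621, and none here for 12146. The array median was subtracted, the brightest probe set stood for a gene, and genes had to reach the array median in at least 1 array. Members and the 18 lists (243 genes, 234 with a named probe set) were chosen with earlier results of these data known. Named were all members, up to 4 genes per list with the largest difference in association L6b, and 3 nearest profiles per member with a span of at least 2-fold. *Gad1*, *Gad2*, *Slc32a1*, *Dlx1*, *Dlx2*, *Lhx6*, *Cpe*, *Trhr*, *Crhr1*, *Xist*, and others outside that rule were chosen after their values were seen. Arrays limit precision by their number, 1 per group. Alternatives were other scalings, filters, probe set rules, sizes, arrays left out, and another reference for the differences of members in association L6b. Python 3.11.15, pandas 2.3.3, numpy 2.4.6, and matplotlib 3.10.9 were used, and the steps were tested on simulated data.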

Additional observations from a re-analysis of the deposited data

How the results depend on the processing

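The counts of members higher or lower in 1 array than in each other array were within 1.5 times of those reported under every scaling, filter, probe set rule, and array left out that was run. The shares of all genes beside them moved with the filter, from 1.26% to 2.22% (filter at the 75th percentile) or 0.818% (none) for genes higher in association L6b, and from 2.82% to 5.35% or 1.79% for genes lower there. With a size of at least 1.5-fold in place of 2-fold, counts between pairs of arrays moved. Members higher in association than in callosal L2/3 became 2 and members lower became 2, members higher in association than in callosal L5 became 1, members higher in association L5 than in association L2/3 became 1 and lower became 2, and members lower in callosal L5 than in callosal L2/3 became 2. The looser size is the cause by construction. Shares of all genes at 1.5-fold are not given for these pairs, so the added members have no background beside them. For calls of 1 array against each other array, in either direction, the share of all genes rose from 11.9% to 25.5%. The difference of each member in association L6b from the mean of the others ranged over scalings, probe set rules, and arrays left out. It was 2.42 to 2.67 for *Trh*, 2.80 to 3.12 for *Crh*, and -2.45 to -1.70 for *Penk*. It was -3.34 to -2.29 for *Tac1*, -1.14 to -0.82 for *Cartpt*, and -0.72 to -0.21 for *Adcyap1*. For *Pdyn*, *Pnoc*, *Scg2*, and *Vgf* it lay between -0.11 and 0.17 and changed sign. *Cartpt* passed 2-fold without callosal L2/3 (-1.09) and without callosal L5 (-1.14). A further alternative set association L6b against the top array among the others, not against their mean. That gave 2.31 for *Trh*, 2.46 for *Crh*, and -0.24 to -0.07 for *Pdyn*, *Pnoc*, *Scg2*, and *Vgf*. For *Penk* (-3.87), *Tac1* (-5.09), *Cartpt* (-1.49), and *Adcyap1* (-1.70), it gave the full span between the arrays. List medians near 0 changed sign for other neuropeptide precursors (-0.11 with a filter at the 75th percentile), processing enzymes (0.03 with the 75th percentile subtracted), receptors (0.07 likewise), degrading enzymes (-0.03 without a filter), and activity-induced genes (0.07 with the 75th percentile subtracted). No paired analysis was possible because each group has 1 array and the labels give no replicate numbers. The number of arrays limits every value.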
